A study of Mus musculus with 6 samples.

Results

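Interferon-stimulated genes (ISGs) are the genes that cells switch on when type I or type II interferon reaches its receptor. A set of 48 well-known mouse ISGs was chosen by name, and every peak that the deposited annotation assigned to one of them was taken from 6 ChIP-seq peak lists. These 48 genes held 345 of the 134964 peaks, and 14930 genes held at least 1 peak in some list. The lists map C/EBPα, IRF8 and JUNB in bone marrow-derived macrophages (BMDMs) of the mouse, a primary cell type grown in culture from marrow. All groups came from wild-type mice 8-12 weeks old on a C57BL/6 background, and all were differentiated for 6 days with L929 supernatant as a source of M-CSF. The 3 control groups, 1 per antibody, received no IL-4, and the 3 IL-4 groups received IL-4 at 20 ng/ml for 1 h on day 6. Each group had 1 sample, so no value below has a replicate, no test of IL-4 can be made, and the number of animals behind a sample is not given in the sources used here. Any difference between 2 lists includes the difference between 2 libraries.

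Interferon receptors signal through Janus kinases to transcription factors, among them IRF9, that bind an element called the interferon-stimulated response element (ISRE) next to ISGs. Interferon gamma acts mostly through a shorter palindrome, the gamma-activated site (GAS). IRF8 is a member of the same family as IRF9 and is made constitutively in macrophages. It binds ISREs and, with PU.1, composite ETS-IRF elements. C/EBPα is a myeloid lineage factor and JUNB is a subunit of AP-1, and neither belongs to the interferon pathway. IL-4, which signals through STAT6, is not an interferon, and the comparison asks whether factors already on ISG chromatin were redistributed within 1 h.

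A peak score was deposited for every peak without a stated unit. From how its values behave it was read as the −log10 of a significance value (p or q), so it rises with sequencing depth, which is unknown, and it is not an occupancy. A promoter peak is one that the authors' annotation calls promoter, and all others are called distal here, also those just inside the first exon or intron. A peak belongs to the gene with the nearest transcription start site (TSS), which need not be the gene it acts on. Among macrophage markers that the lists name, a promoter or intragenic C/EBPα peak was present at 7 of 7 in both conditions. IRF8 peaks were present at 6 of those 7 in both, and JUNB peaks at 2 in control and 1 after IL-4. For B cell markers the count was 0 in every list. IRF8 peaks of this kind were also listed, in both conditions, at 2 of the 2 named T cell markers (Cd3d and Lck). They were listed as well at 1 of 2 neutrophil markers (S100a8) and 1 of 2 fibroblast markers (Pdgfra). C/EBPα was listed at S100a8 in both, at Cd3d after IL-4 and at Pdgfra in control.

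The core of the ISRE, GAAANNGAAA, was searched on both strands. It was found in the 200 bp around the peak centre at 26 of the 37 genes with an IRF8 promoter peak, and 9 of those genes had more than 1 match. The match nearest the centre is shown for 13 genes that recur below, read 5′ to 3′ on the strand of the match from the GRCm38 assembly, with the core in capitals. Up to 25 bases on each side are given, or 10 where the stretch touches an annotated exon.
Gbp7 (chr3:142530258-142530317, minus strand): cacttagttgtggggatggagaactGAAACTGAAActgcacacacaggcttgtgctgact
Irgm2 (chr11:58214888-58214947, plus strand): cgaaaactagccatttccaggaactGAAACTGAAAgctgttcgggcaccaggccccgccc
Igtp (chr11:58199512-58199541, plus strand): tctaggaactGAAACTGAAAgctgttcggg
Isg15 (chr4:156200850-156200909, minus strand): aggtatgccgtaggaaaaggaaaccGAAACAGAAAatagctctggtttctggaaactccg
Rtp4 (chr16:23609820-23609879, plus strand): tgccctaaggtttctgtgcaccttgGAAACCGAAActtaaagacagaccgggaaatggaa
Ifit3 (chr19:34583363-34583392, minus strand): accagaagagGAAAGTGAAActtaccactg
Zbp1 (chr2:173218988-173219047, plus strand): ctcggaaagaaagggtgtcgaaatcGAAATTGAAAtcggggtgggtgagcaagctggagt
Usp18 (chr6:121245798-121245857, minus strand): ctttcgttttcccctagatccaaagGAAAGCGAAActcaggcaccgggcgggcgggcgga
Oas2 (chr5:120749890-120749949, plus strand): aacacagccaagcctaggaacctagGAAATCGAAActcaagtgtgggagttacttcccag
Oas1a (chr5:120907520-120907549, minus strand): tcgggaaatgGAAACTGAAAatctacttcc
Oas1g (chr5:120887606-120887635, minus strand): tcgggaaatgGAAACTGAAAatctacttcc
Ifih1 (chr2:62646204-62646233, minus strand): gaagagaatcGAAACAGAAAccgatctgtg
Isg20 (chr7:78913916-78913945, plus strand): taatgaaccaGAAACTGAAActaaaacagg

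The 2 bases between the GAAA repeats were CT at 8 of 28 member promoter peaks with a core in the IRF8 control list (28.6%), against 13.4% of 246 such peaks of other genes. Each peak was counted under a single match, so a further CT core in the same peak could be left out. The Oas1a and Oas1g windows differed at 0 of 30 bases and the Irgm2 and Igtp windows at 1 of 30. In each pair the genes are paralogs. The cores shown for these genes have CT, so the member share may count near-copies separately. Reads from such copies may align to either, so their peaks are uncertain as separate measurements. In RefSeq promoters of GRCm38.p6, which run from 250 bases before to 50 bases after a start site, the core was present in 21 of the 37 members that matched an entry (56.8%, Wilson 95% interval 40.9 to 71.3). Of 26988 other genes, 3.92% held it in the same 300 bases. The GAS-type palindrome TTCNNNGAA was present at 12 of those 37 (32.4%, 19.6 to 48.5) and at 9.52% of other genes. The composite ETS-IRF element GGAANNGAAA was in 13.5% of these member promoters (5.91 to 28.0) and 3.14% of the others, and the AP-1 site TGANTCA in 21.6% (11.4 to 37.2) and 8.96%. Searches for different motifs were separate, so their matches may overlap. Intervals here and below cover counting error only and treat genes or peaks as independent, although neighbouring ISGs share regions.

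IRF8 was the factor found at nearly every ISG, but it was also listed at most other genes. It had a peak at 47 of 48 genes in control and at 47 of 48 after IL-4 (97.9% in each). In either list it had one at all 48, against 94.5% of other genes. The gene without one was Ifit1 in control and Tap1 after IL-4. Of the 14882 other genes with a peak of some factor, 81.4% had an IRF8 peak in control and 89.1% in the IL-4 list. C/EBPα had a peak at 25 genes in control and 27 after IL-4 (52.1% and 56.3%), while other genes stood at 62.5% and 62.4%. JUNB was scarce. It had a peak at 5 members in control and 3 after IL-4 (10.4% and 6.25%). In either list 6 of the 48 members had one and 42 had none, and 21.4% of other genes had one. Among other genes, JUNB peaks were listed at 18.2% and 12.4%, in lists of 3940 and 2325 peaks.

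**Figure D1:**
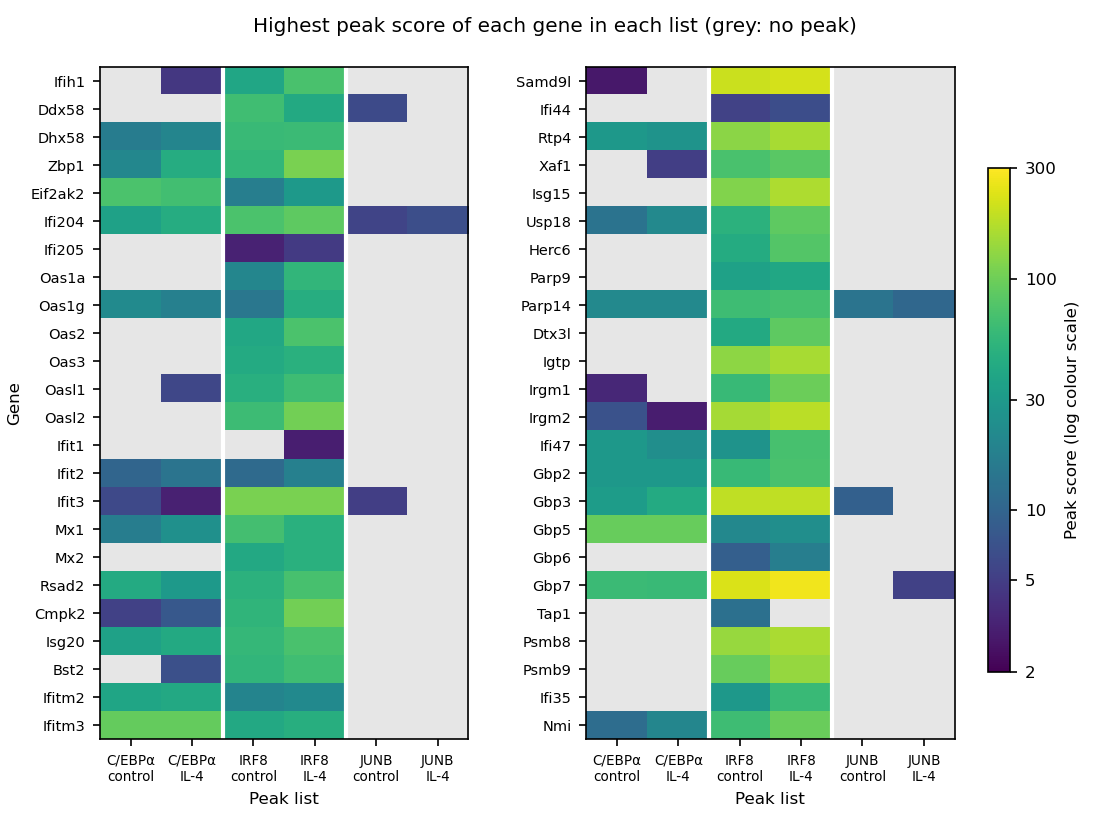
Highest peak score of each of the 48 genes (rows) in each of the 6 lists (columns), on a log colour scale, with grey where a gene had no peak. The IRF8 columns are filled at 47 of 48 genes, C/EBPα at 25 and 27, and JUNB at 5 and 3.

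The number of IRF8 peaks per gene ran from 0 at Ifit1 to 6 at Ddx58 and Samd9l in control. 1 IRF8 peak was listed in each condition at Cmpk2, Dtx3l, Gbp7, Ifi205, Ifi35, Ifi44, Ifitm2, Igtp, Isg15, Oas1a, Oas2, Oas3, Oasl1, Oasl2 and Xaf1. 2 IRF8 peaks were listed in each condition at Eif2ak2, Ifit3, Isg20, Mx2, Oas1g, Parp9 and Rsad2. 3 IRF8 peaks were listed in each condition at Dhx58, Herc6, Ifi47, Ifih1 and Psmb9. 4 IRF8 peaks were listed in each condition at Ifit2, Ifitm3, Mx1 and Nmi. 5 IRF8 peaks were listed in each condition at Ifi204 and Usp18. 6 IRF8 peaks were listed in each condition at Ddx58. More IRF8 peaks were listed after IL-4 than in control at Bst2 (2 and 3), Gbp2 (4 and 5), Ifit1 (0 and 1), Irgm2 (2 and 3), Parp14 (4 and 6), Rtp4 (4 and 5), Samd9l (6 and 7) and Zbp1 (1 and 2), control count first. Fewer IRF8 peaks were listed after IL-4 than in control at Gbp3 (5 and 4), Gbp5 (5 and 3), Gbp6 (2 and 1), Irgm1 (4 and 3), Psmb8 (2 and 1) and Tap1 (1 and 0). No C/EBPα peak was listed in either condition at Ddx58, Dtx3l, Gbp6, Herc6, Ifi205, Ifi35, Ifi44, Ifit1, Igtp, Isg15, Mx2, Oas1a, Oas2, Oas3, Oasl2, Parp9, Psmb8, Psmb9 and Tap1. 1 C/EBPα peak was listed in each condition at Cmpk2, Gbp7, Ifi47, Ifit2, Ifit3, Irgm2, Isg20, Nmi, Oas1g and Zbp1. 2 C/EBPα peaks were listed in each condition at Usp18. 3 C/EBPα peaks were listed in each condition at Rtp4. 4 C/EBPα peaks were listed in each condition at Ifi204 and Ifitm3. 5 C/EBPα peaks were listed in each condition at Parp14. More C/EBPα peaks were listed after IL-4 than in control at Bst2 (0 and 2), Dhx58 (1 and 2), Eif2ak2 (1 and 2), Gbp2 (1 and 2), Ifih1 (0 and 1), Mx1 (2 and 4), Oasl1 (0 and 1), Rsad2 (2 and 3) and Xaf1 (0 and 1). Fewer C/EBPα peaks were listed after IL-4 than in control at Gbp3 (3 and 1), Gbp5 (4 and 3), Ifitm2 (2 and 1), Irgm1 (1 and 0) and Samd9l (1 and 0). JUNB counts in the same order were 1 and 0 at Ddx58, 1 and 0 at Gbp3, 0 and 1 at Gbp7, 2 and 2 at Ifi204, 1 and 0 at Ifit3 and 1 and 1 at Parp14.

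The share of peaks at promoters was also high. In the IRF8 lists 33.1% of member peaks were promoter peaks in control (25.2 to 42.0) and 28.3% after IL-4 (21.0 to 37.0). For all other peaks the shares were 7.16% and 9.11%. C/EBPα gave 30.4% and 29.4% at the members against 6.84% and 7.31% elsewhere, and its promoter peaks were at 14 members in control and 15 after IL-4 (29.2% and 31.3%, against 10.8% and 11.6% of other genes). JUNB had a promoter peak at 1 member in control and 2 after IL-4. By gene, 37 of 48 had an IRF8 promoter peak in control (77.1%; other genes 17.1%) and 32 after IL-4 (66.7%; other genes 24.3%). That decrease was mostly one of annotation. Of the 5 genes without an IL-4 promoter peak, 4 had a control promoter peak that was overlapped by an IL-4 peak labelled otherwise. These were Samd9l (114 in control, 143 after IL-4, now 5′ UTR), Ifitm3 (12.3 and 19.2, now exon), Eif2ak2 (17.2 and 7.91, now intron) and Tap1, whose 12.7 peak fell inside a peak named for Psmb9. The fifth, Psmb8, lost a weak peak of 4.74. Counting any IRF8 peak within 1000 bp of a member's start site, whatever its name, gave 44 of 48 genes in both conditions, against 27.9% and 38.3% of 13900 other genes with an annotated start. This count was added after the data were seen. It included Ifit1 and Parp9, whose nearby peaks carried the names 2010002M12Rik and Dtx3l, so a gene with no peak under its own name can have one at its start.

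**Figure D2:**
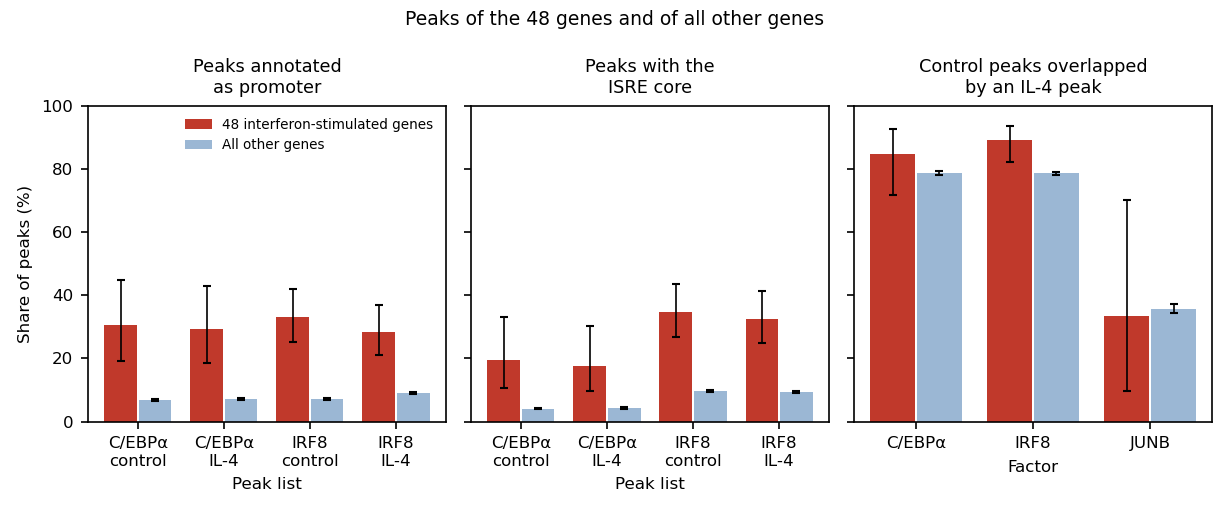
Percent of peaks annotated as promoter (left), with the ISRE core in the 200 bp around the centre (middle) and, for control peaks, overlapped by an IL-4 peak of the same factor (right), with Wilson 95% intervals. The promoter and ISRE shares of the 48 genes lie above those of other genes in the 4 C/EBPα and IRF8 lists, and the kept share of IRF8 peaks is 89.0% against 78.5%.

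Scores at IRF8 promoter peaks were high as well. Their median was 31.6 over 39 peaks in control and 56.5 over 34 after IL-4, against 7.22 and 6.73 at promoter peaks of other genes. These are different sets of peaks, since some weaker ones were no longer labelled promoter, and over the 37 pairs present in both lists the medians were 38.8 and 53.7 (other genes 9.30 and 11.8). Distal IRF8 peaks at members had medians of 15.6 and 15.2 (other genes 10.5 and 10.2). A promoter region, meaning touching peaks of any list merged into 1 interval, was present at 39 of the 48 genes. Of these, 37 had an IRF8 score in both conditions, with Psmb9 and Tap1 sharing 1 region. The score was higher after IL-4 at 32 of them and lower at 5. It was over 2-fold higher at 4 genes and over 2-fold lower at 1. Counted by paired promoter peaks, 31 of 37 member pairs were higher after IL-4 (83.8%; background 66.0%). Of the 37, 4 were over 2-fold higher (10.8%; background 15.7%) and 1 was over 2-fold lower (2.70%; background 4.75%).

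**Figure D3:**
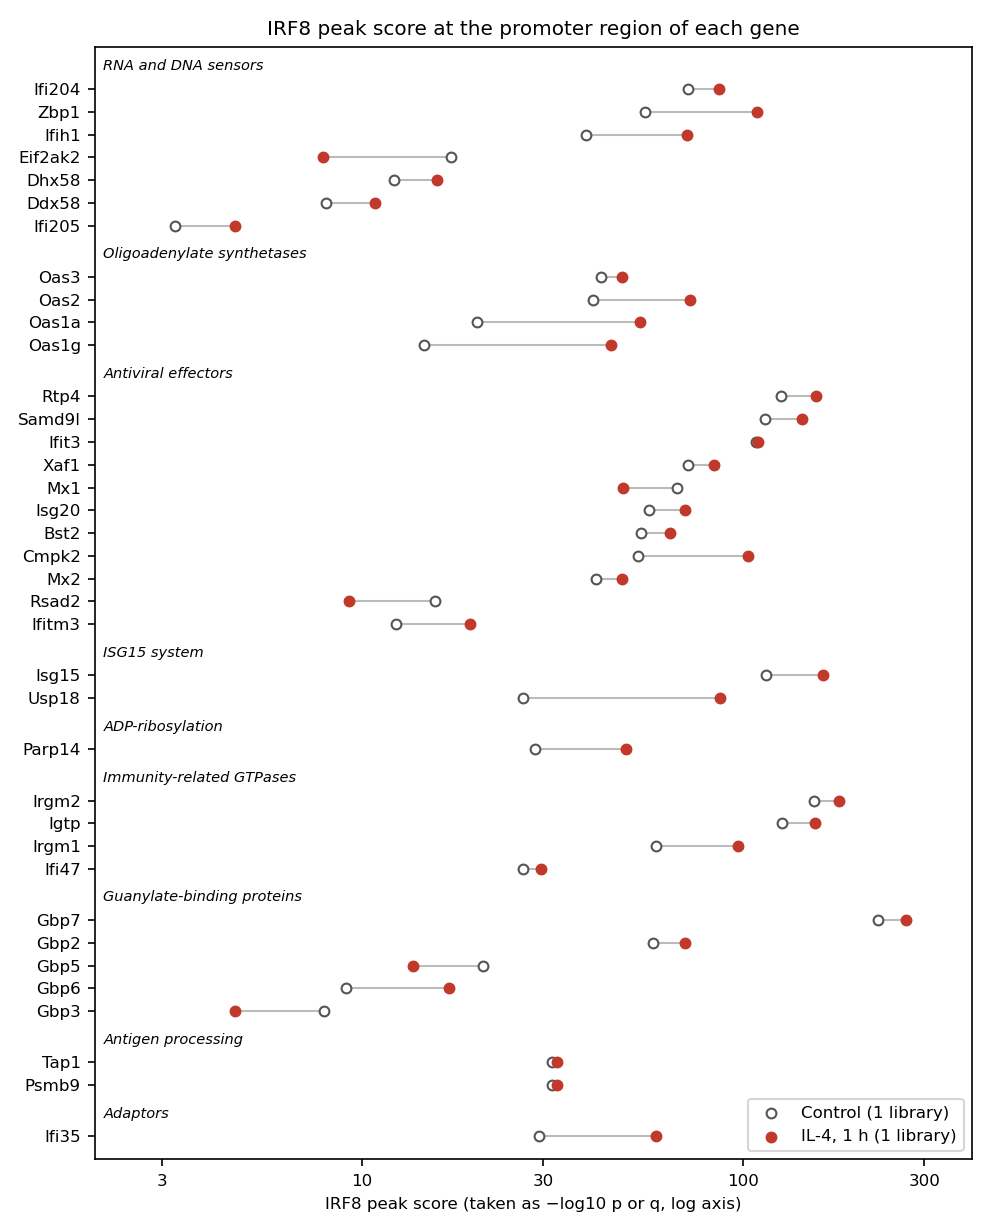
IRF8 peak score (log axis) at the highest-scoring promoter region of 37 genes, in control (open circles) and after 1 h of IL-4 (filled circles), 1 library each, ordered by gene group. The filled circle lies to the right at 32 genes, and Eif2ak2, Mx1, Rsad2, Gbp5 and Gbp3 are the exceptions. Among paired IRF8 promoter peaks of other genes, 66.0% scored higher after IL-4.

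The 7 sensors of foreign nucleic acid all had an IRF8 promoter region. Zbp1, a receptor for left-handed nucleic acid that can trigger necroptosis, had an IRF8 score of 55.4 in control and 109 with IL-4 at chr2:173218679-173219425. C/EBPα was higher there as well, with 20.4 in control and 44.3 with IL-4, the largest relative change of C/EBPα among promoter pairs. Ifih1, which encodes the long double-stranded RNA sensor MDA5, scored 38.8 in control and 71.3 with IL-4 (chr2:62646008-62646460). Ddx58 encodes RIG-I, the sensor of RNA with a 5′ triphosphate, and Dhx58 encodes their regulator LGP2. Their promoters scored low, with 8.04 in control and 10.8 with IL-4 at Ddx58 (chr4:40239894-40240185). Dhx58 scored 12.2 in control and 15.8 with IL-4 (chr11:100704055-100704511), and its promoter C/EBPα peak was listed at 9.26 after IL-4, with no peak in control. Both genes had stronger distal IRF8 regions. The Ddx58 one scored 64.9 in control and 42.25 with IL-4 (chr4:40250928-40251384). The Dhx58 one scored 59.8 in control and 61.0 with IL-4 (chr11:100702561-100703007). Eif2ak2, the kinase PKR that halts translation on double-stranded RNA, was the one gene over 2-fold lower, with 17.2 in control and 7.91 with IL-4 (chr17:78882259-78882687). The PYHIN gene Ifi204, a DNA sensor, was bound by all 3 factors at chr1:173766742-173767342. IRF8 scored 71.9 in control and 86.6 with IL-4, C/EBPα 35.3 in control and 44.5 with IL-4, and JUNB 6.67 after IL-4, with no peak in control. Its relative Ifi205 had the lowest control score among IRF8 promoter regions, 3.24 in control and 4.66 with IL-4 (chr1:174031633-174032065).

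The oligoadenylate synthetases make the messenger that turns on RNase L. Oas1a and Oas1g, whose windows above differed at 0 of 30 bases, stood in the same direction. Oas1a scored 20.1 in control and 53.7 with IL-4 (chr5:120907186-120907846) and Oas1g 14.6 in control and 45.2 with IL-4 (chr5:120887271-120887820), both over 2-fold higher after IL-4. Oas2 scored 40.6 in control and 72.8 with IL-4 (chr5:120749664-120750196), and Oas3 42.6 in control and 48.4 with IL-4 (chr5:120777406-120777878). None of these 4 promoters had a C/EBPα or JUNB peak. Oasl2, a catalytically active OAS-like gene, had an IRF8 peak in its 5′ UTR with 62.3 in control and 103 with IL-4 (chr5:114897084-114897901), and Oasl1, a repressor of Irf7 translation, one upstream with 46.7 in control and 63.7 with IL-4 (chr5:114916722-114917174).

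Among the 15 antiviral effectors the highest promoter scores were those of Rtp4, Samd9l and Ifit3. Rtp4, an inhibitor of flavivirus replication, scored 126 in control and 156 with IL-4 for IRF8 and 8.56 in control and 7.46 with IL-4 for C/EBPα (chr16:23609576-23610164). Samd9l, a restriction factor for poxviruses, scored 114 in control and 143 with IL-4 (chr6:3399201-3399700). Ifit3, a partner of the RNA-binding Ifit1, had close scores in both lists, with 109 in control and 109.8 with IL-4 (chr19:34582724-34583816). It was also listed for C/EBPα at 6.08 in control and 3.14 with IL-4 and for JUNB at 5.10 in control, with no peak after IL-4. Rsad2 and Cmpk2, which make the antiviral nucleotide ddhCTP together, are neighbours. Their promoter regions stood in opposite directions. Cmpk2 scored 53.1 in control and 103 with IL-4 for IRF8 and 5.24 in control and 8.01 with IL-4 for C/EBPα (chr12:26469077-26469551). The Rsad2 promoter scored 15.5 in control and 9.29 with IL-4 for IRF8 (chr12:26456476-26456762). A stronger IRF8 region upstream of Rsad2 (chr12:26459908-26460712) scored 49.8 in control and 69.5 with IL-4, the same direction as Cmpk2.

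Mx1 and Mx2 are dynamin-like antiviral GTPases, and Mx1 is disrupted in most laboratory strains. Mx1 scored 67.1 in control and 48.5 with IL-4 for IRF8 but 7.89 in control and 15.3 with IL-4 for C/EBPα (chr16:97462703-97463450), and Mx2 scored 41.3 in control and 48.3 with IL-4 for IRF8 (chr16:97534883-97535513). Isg20, an RNA exonuclease, carried both factors, IRF8 with 56.7 in control and 70.7 with IL-4 and C/EBPα with 35.0 in control and 42.3 with IL-4 (chr7:78913522-78914125). Bst2, or tetherin, which holds budding virus at the cell surface, scored 54.0 in control and 64.5 with IL-4 for IRF8 (chr8:71537269-71537991). Its promoter C/EBPα peak was listed at 6.82 after IL-4, with no peak in control. Xaf1, which promotes apoptosis, scored 71.8 in control and 83.9 with IL-4 for IRF8 (chr11:72301437-72302046). C/EBPα was listed there at 5.10 after IL-4, with no peak in control. The membrane proteins Ifitm2 and Ifitm3 block viral fusion. Ifitm3 scored 12.3 in control and 19.2 with IL-4 for IRF8 (chr7:141010377-141010997). At Ifitm2 the promoter region was bound by C/EBPα with no IRF8 peak, scoring 38.4 in control and 41.3 with IL-4 (chr7:140956293-140956714).

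The ISG15 system attaches a ubiquitin-like tag to proteins. Isg15 itself scored 115 in control and 163 with IL-4 for IRF8 (chr4:156200605-156201290). Usp18, which removes the tag and also restrains the type I interferon receptor, had the largest relative difference of all promoter regions, with 26.6 in control and 87.1 with IL-4 (chr6:121245426-121246034), a log2 ratio of 1.71. Herc6, the mouse ligase for ISG15, had its main IRF8 peak in the first intron with 43.6 in control and 78.8 with IL-4 (chr6:57580972-57581740). Parp14, an ADP-ribosyltransferase, scored 28.5 in control and 49.4 with IL-4 at its promoter (chr16:35871181-35871712). The Parp9 and Dtx3l proteins form a complex, and their genes start back to back within 1 IRF8 peak, listed under Dtx3l as exonic with 42.0 in control and 87.0 with IL-4 (chr16:35938344-35939204).

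The immunity-related GTPases (IRGs) and guanylate-binding proteins (GBPs) act on vacuoles that hold bacteria and parasites. Irgm2 and Igtp scored 154 in control and 179 with IL-4 (chr11:58214726-58215249) and 127 in control and 155 with IL-4 (chr11:58199139-58199778). Irgm1 scored 59.1 in control and 97.3 with IL-4 (chr11:48871103-48871651), and a second promoter region nearby (chr11:48871762-48871916) held no IRF8 but a weak C/EBPα peak with 3.46 in control, with no peak after IL-4. Ifi47 was bound by both factors at similar scores, IRF8 with 26.5 in control and 29.6 with IL-4 and C/EBPα with 29.1 in control and 23.6 with IL-4 (chr11:49076288-49076736). Gbp7 had the highest IRF8 score of any member region, 227 in control and 268 with IL-4 (chr3:142529838-142530642). The same region had the highest C/EBPα score among promoters, 61.0 in control and 59.3 with IL-4, and a JUNB peak of 5.26 after IL-4, with no peak in control. Gbp2 scored 58.0 in control and 70.5 with IL-4 for IRF8 and 29.1 in control and 29.0 with IL-4 for C/EBPα (chr3:142619865-142620802). The other GBP promoters were weaker. Gbp5, which assembles the NLRP3 inflammasome, scored 20.8 in control and 13.7 with IL-4 for IRF8 and 6.72 in control and 6.29 with IL-4 for C/EBPα (chr3:142496504-142496984). Gbp3 scored 7.97 in control and 4.66 with IL-4 for IRF8 (chr3:142559808-142560209), and its C/EBPα peak was listed at 6.69 in control, with no peak after IL-4. Gbp6 scored 9.10 in control and 17.0 with IL-4 for IRF8 (chr5:105293506-105293953).

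Genes of antigen processing had no C/EBPα or JUNB peak in any list. The shared promoter region of Psmb9, an immunoproteasome subunit, and Tap1, a subunit of the peptide transporter, scored 31.6 in control and 32.6 with IL-4 for IRF8 (chr17:34186675-34187846). At Psmb8, another immunoproteasome subunit, the promoter peak scored 4.74 in control, with no peak after IL-4 (chr17:34197691-34197869), while the next peak, in the 5′ UTR, scored 137 in control and 159.6 with IL-4 (chr17:34198079-34198658). Ifi35 and Nmi encode coiled-coil proteins that bind each other. Ifi35 scored 29.2 in control and 59.4 with IL-4 (chr11:101448249-101448752), just over 2-fold higher, and Nmi had its main peak in the first intron with 63.3 in control and 96.4 with IL-4 (chr2:51972570-51973394).

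No promoter region was found at 9 members, but 5 of them are the cases given above, with IRF8 within the first exon or intron or upstream (Herc6, Dtx3l, Nmi, Oasl1 and Oasl2). Of the others, Ifi44 had 1 intronic IRF8 peak of 5.35 in control and 6.55 with IL-4. Parp9 had its stronger named IRF8 peak at chr16:35918708-35919457, with 35.1 in control and 39.2 with IL-4. Ifit2 had 4 IRF8 peaks in each list, none above 17.8. Ifit1 had under its own name a lone IRF8 peak of 3.02 after IL-4, with no peak in control, 41816 bp downstream of its start.

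Of the 5 strongest IRF8 regions not annotated as promoter, 3 lay just inside the member's own start and the others in intergenic DNA. The highest was 53526 bp downstream of the Samd9l start (chr6:3345783-3346301), with 199.7 in control and 219 with IL-4 and no other factor. In the first intron of Gbp3 (chr3:142560236-142560868) IRF8 scored 185 in control and 186 with IL-4 and JUNB 9.21 in control, with no peak after IL-4. Then came the Psmb8 5′ UTR peak above, an intergenic peak near Psmb9 (chr17:34180494-34181076) with 94.4 in control and 136 with IL-4, and the Oasl2 peak. None of these 5 carried C/EBPα. IRF8 was the only factor at 62.9% of all distal member regions in control and at 46.6% of those of other genes.

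The strongest distal C/EBPα regions were at other positions. At chr3:142478319-142478683, upstream of Gbp5, C/EBPα scored 92.8 in control and 93.5 with IL-4 and IRF8 8.67 in control, with no peak after IL-4. Near Ifitm3, chr7:140997768-140998199 scored 91.8 in control and 91.2 with IL-4 for C/EBPα and 40.1 in control and 18.4 with IL-4 for IRF8. A neighbouring region, chr7:140998819-140999714, scored 34.9 in control and 43.6 with IL-4 for C/EBPα and 40.8 in control and 46.7 with IL-4 for IRF8. Upstream of Eif2ak2, chr17:78890826-78891448 scored 72.3 in control and 65.6 with IL-4 for C/EBPα, while IRF8 scored 9.05 in control and 30 with IL-4. Upstream of Rsad2, chr12:26459908-26460712 scored 42.6 in control and 29.9 with IL-4 for C/EBPα and 49.8 in control and 69.5 with IL-4 for IRF8. All 5 of these regions, chosen by score, had an IRF8 peak in at least 1 list. Over all distal regions in control, C/EBPα and IRF8 without JUNB were at 18 member regions and C/EBPα alone at 10. At other genes the numbers were 10821 and 9017.

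JUNB had few distal peaks to rank. The highest was upstream of Parp14 (chr16:35902961-35903408) with 13.7 in control and 10.7 with IL-4. That region also had IRF8 at 63.3 in control and 68.3 with IL-4, and C/EBPα at 21.3 in control and 7.48 with IL-4. Next were the Gbp3 intron already named, an intronic Ddx58 region (chr4:40233277-40233553) with 6.15 in control, with no peak after IL-4, and a pair of regions near Ifi204. The intronic one (chr1:173762428-173762744) scored 5.62 in control, with no peak after IL-4, and the upstream one (chr1:173802643-173803118) scored 5.62 in control and 3.19 with IL-4.

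Most member peaks of C/EBPα and IRF8 were found again after IL-4. Of 46 C/EBPα control peaks, 39 were overlapped by an IL-4 peak (84.8%, 71.8 to 92.4), against 78.6% at other genes. For IRF8 it was 105 of 118 (89.0%, 82.1 to 93.4), against 78.5%. At IRF8 promoter peaks the share was 38 of 39 (97.4%; other genes 75.4%), and at distal ones 84.8% (78.8%). The JUNB share was 2 of 6 (33.3%; other genes 35.8%). Score went along with this. All 83 IRF8 control peaks at members that scored at least 10 were found again, beside 96.5% at other genes. Of the 35 below 10 it was 22 (62.9%), beside 59.9% of such peaks at other genes. Within both ranges the members were thus close to other genes.

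By gene, C/EBPα gained a peak at 9 of 29 members (31.0%, 17.3 to 49.2), where the background over other genes was 36.3%. It lost one at 6 (20.7%, 9.85 to 38.4), with a background of 36.6%. IRF8 gained a peak at 15 of 48 members (31.3%, 19.9 to 45.3), and the background was 55.4%. It lost one at 11 (22.9%, 13.3 to 36.5), and the background was 38.3%. JUNB gained one at 2 of 6 (33.3%; background 25.8%) and lost one at 4 of 6 (66.7%; background 60.7%). The C/EBPα and JUNB intervals covered the background, and both IRF8 intervals lay below it. A gene with no peak in control can only gain one, and there were more such genes among the others, so genes with a control peak were also counted alone, a count added after the data were seen. IRF8 then gained a peak at 14 of 47 members (29.8%, 18.7 to 44.0; others 48.4%) and lost one at 11 (23.4%, 13.6 to 37.2; others 44.5%). For C/EBPα the shares were 20% and 24% of 25 members, against 30% and 40.2%, and both member intervals covered the background. Among the 17 members with exactly 1 IRF8 peak in control, 1 gained a peak and 0 lost one (5.88%, 1.05 to 27.0, and 0%, up to 18.4), and among 4802 such other genes the shares were 31.9% and 23.6%. At 11 members with 2 control peaks the gained share was 27.3% (9.75 to 56.6; others 44.4%). The lost share was 36.4% (15.2 to 64.6; others 40.9%). At 17 members with 3 to 5 the gained share was 47.1% (26.2 to 69.0; others 58.0%). The lost share was 35.3% (17.3 to 58.7; others 58.8%). Of 2 members with 6 or more, 2 gained a peak and 1 lost one (others 84.3% and 84.0%). With only peaks of a score of at least 5, IRF8 gained a peak at 17.4% of members, against 44.5% of other genes.

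Peaks gained or lost had low median scores, at members as at other genes. The median score of lost IRF8 peaks was 5.43 at members and 5.33 elsewhere, and that of gained ones 4.76 and 4.99. For C/EBPα the medians were 5.20 and 5.62 for lost peaks, and 5.10 and 5.89 for gained ones. The highest score was 9.91 among 7 lost C/EBPα peaks and 10.7 among 11 gained. It was 9.06 among 13 lost IRF8 peaks and 11.9 among 18 gained, and 9.21 and 6.67 among 4 lost and 2 gained JUNB peaks. At other genes the highest scores of lost and gained peaks were 32.3 and 68.8 for C/EBPα. They were 26.7 and 101 for IRF8 and 27.6 and 23 for JUNB. Other genes had many more such peaks, among them 12781 gained IRF8 peaks. Both gained JUNB peaks were at promoters, those of Ifi204 and Gbp7, beside 35 of 908 gained JUNB peaks at other genes. No IRF8 promoter peak was gained at a member, while 48.4% of the IL-4 promoter peaks of other genes overlapped no control peak. In control, 77.1% of members already had an IRF8 promoter peak, against 17.1% of other genes. Median scores of the IL-4 promoter peaks also differed (56.5 and 6.73), and the contrast was matched for neither.

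**Figure D4:**
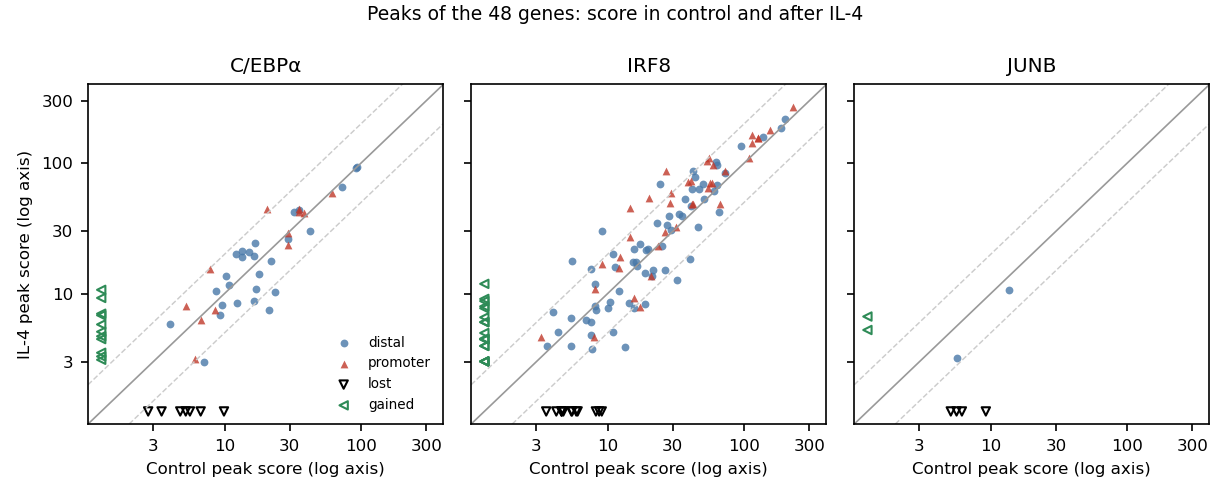
Score of each member peak in control (x) and after IL-4 (y), both log axes, for C/EBPα, IRF8 and JUNB, with triangles for promoter and circles for distal peaks. The solid line marks equal scores and the dashed lines a 2-fold difference. Open symbols on the left and lower edges are peaks listed in 1 condition, whose scores reach 11.9 among IRF8 gains and 9.91 among C/EBPα losses.

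Where a peak was present in both lists, its scores were compared as log2 of IL-4 over control. At members the median was −0.003 for C/EBPα (SD 0.60 over 39 pairs), next to −0.004 at other genes. For IRF8 it was 0.23 (SD 0.69 over 102 pairs), next to 0.08. A score over 2-fold higher was seen at 1 of 39 C/EBPα pairs (background 7.73%) and over 2-fold lower at 3 (background 6.52%). The IRF8 counts were 9 higher (8.82%) and 8 lower (7.84%) of 102, with backgrounds of 11.3% and 7.95%. Of JUNB, the 2 pairs gave 0 in either direction (backgrounds 2.99% and 29.9%). IRF8 promoter pairs had a median of 0.32 (SD 0.62, n = 37 pairs), with 31 higher (83.8%). Promoter pairs of other genes had a median of 0.28, and 66.0% of them were higher.

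Strong peaks were also counted alone. Among member IRF8 pairs with a control score of at least 30, a division made after the data were seen, 38 of 43 were higher after IL-4 (88.4%), with a median log2 ratio of 0.27. Among other genes it was 50.1% of 7138 pairs, with a median of 0.0007. Below a control score of 10 the order was the other way, with 11 of 20 member pairs higher (55%, median 0.19) and 68.0% of other pairs (median 0.37), and from 10 to 30 the shares were 56.4% and 46.8%. Within promoters and at a control score of at least 30 the counts were 19 of 20 (95%) and 66.8% of 310. C/EBPα pairs in the same range were higher at 6 of 10 member pairs and 46.4% of other pairs. These ratios come from 1 library per condition and have no replicate error to be set against.

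A gain or loss in at least 2 factors was seen at 8 of 48 members (16.7%), against 35.3% of the 14882 other genes. All the member peaks involved were weak. A change in all 3 factors was seen at 2.08% of members and 9.82% of other genes. Gbp3 was the one member that changed in all 3 factors. It lost C/EBPα at its promoter (6.69) and at chr3:142570745-142571061 (5.20), lost IRF8 at chr3:142561384-142561884 (5.49), where C/EBPα scored 32.1 in control and 42.5 with IL-4, and lost the intronic JUNB peak (9.21). Gbp5 lost IRF8 at 3 regions, among them the strong C/EBPα region upstream (8.67), and lost C/EBPα at chr3:142499185-142499339 (5.58). It gained IRF8 at chr3:142474500-142474699 (7.72). Gbp2 instead gained a C/EBPα peak at chr3:142630407-142630844 (3.3) and an IRF8 peak at chr3:142646002-142646170 (3.02).

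Mx1 gained C/EBPα at chr16:97468093-97468279 (10.7) and at an intronic region, chr16:97478697-97479213 (4.71), where IRF8 scored 21.2 in control and 13.8 with IL-4. It gained IRF8 at chr16:97468593-97468768 (4.47) and lost it at chr16:97433042-97433199 (4.61). Bst2 gained C/EBPα at its promoter (6.82) and at chr8:71528538-71528943 (3.52), where IRF8 was lost (5.43). IRF8 was gained nearby at chr8:71527403-71527584 (7.98) and chr8:71528007-71528255 (9.10). Ddx58 gained IRF8 at chr4:40202231-40202399 (3.97) and lost it at chr4:40207102-40207256 (3.55), besides the lost JUNB peak (6.15). Samd9l lost C/EBPα at chr6:3345100-3345402 (2.76) and gained IRF8 at chr6:3368958-3369126 (3.97). Parp14 lost C/EBPα at chr16:35902485-35902645 (9.91) and gained IRF8 at chr16:35880330-35880569 (6.04) and at chr16:35887938-35888626 (4.52), a region that C/EBPα bound with 17.0 in control and 10.9 with IL-4.

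The ISRE core was frequent at IRF8 promoter peaks of members. In control, 28 of 39 IRF8 promoter peaks at members held it in the 200 bp around the centre (71.8%, 56.2 to 83.5), and after IL-4 it was 24 of 34 (70.6%, 53.8 to 83.2). Promoter peaks of other genes held it in 9.18% and 6.36% of cases. At distal IRF8 peaks the member shares were 16.5% and 17.4% (other genes 9.67% and 9.65%). Over all IRF8 peaks the member shares were 34.7% (26.8 to 43.7) and 32.5%, and the C/EBPα shares were 19.6% and 17.6%, against 4.13% and 4.31% at other C/EBPα peaks. Member promoter peaks with the core had a median IRF8 score of 39.7 in control and 71.0 after IL-4, and those without it 26.6 and 40.5, with ranges that overlapped widely (3.24 to 227 and 4.74 to 114 in control).

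The 3 other motifs were counted in the same windows. The GAS-type palindrome was present at 28.2% and 26.5% of IRF8 promoter peaks at members (other genes 6.72% and 6.49%). The ETS-IRF composite GGAANNGAAA was at 16.9% and 15.8% of member IRF8 peaks (others 15% and 13.9%). The AP-1 site TGANTCA was at 10.2% and 9.17% of member IRF8 peaks (others 14.4% and 13.5%). Of the RefSeq promoters, 19 members had both the core and an IRF8 promoter peak, 2 had the core with no such peak under their own name (Ifit1 and Ifitm2), and 8 had the peak without the core in those 300 bases.

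Most bound member regions carried IRF8 alone. In control, 83 of 131 regions did (63.4%; other regions 47.1%), and 35 had more than 1 factor (26.7%, 19.9 to 34.9; others 31.3%). After IL-4 it was 85 of 134 with IRF8 alone (63.4%; others 51.8%) and 34 with more than 1 factor (25.4%, 18.8 to 33.4; others 29.3%). Promoter regions alone gave 28.6% with more than 1 factor in control (17.2 to 43.6; others 21.9%) and 38.9% after IL-4 (24.8 to 55.1; others 20.0%). All 3 factors met at 3 member regions in control (2.29%; others 5.29%) and 4 after IL-4 (2.99%; others 3.05%).

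Genes that act before the ISGs in the same pathway were counted in the same way. Of 22 such genes (receptors, kinases, transcription factors, nucleic acid adaptors, Ifnb1 and Socs1), 21 had an IRF8 peak in either list (other genes 94.5%) and 14 an IRF8 promoter peak (other genes 28.5%). IRF8 peaks were gained at 14 and lost at 13 of the 21, beside the 55.4% and 38.3% of other genes. C/EBPα had peaks at 19, gained at 8 and lost at 13, beside 36.3% and 36.6% of other genes. JUNB had peaks at 10, gained at 1 and lost at 8, beside 25.8% and 60.7%. Socs1, the feedback inhibitor of Janus kinases, had 5 IRF8 peaks in control and 14 after IL-4, and 4 and 7 C/EBPα peaks. The 22 genes had 128 IRF8 peaks in control, where the 48 ISGs had 118. Gains and losses at the 22 genes were not divided by the number of control peaks. Other genes with 3 to 5 IRF8 control peaks gained one at 58.0% and lost one at 58.8%. With 6 or more, the shares were 84.3% and 84.0%.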

How the data were processed

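Wild-type mouse BMDMs were profiled by ChIP-seq for C/EBPα, IRF8 and JUNB in control and after IL-4, with 1 sample per group. According to the study's methods and the submitters' processing notes, the authors aligned reads with BWA 0.7.10 to mm10, called peaks per sample with MACS2 2.0.10 under a q-value limit, removed blacklisted regions and annotated peaks with HOMER 4.2. The deposited score has no stated unit and was read as the −log10 of a significance value (p or q). The deposited distance to the TSS is in bp. Libraries were made with either of 2 kits, and the kit of each sample, the read depth and the background library were not given in the sources used here. Kit and depth cannot be told apart from IL-4.

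Peaks were taken for a gene by the deposited gene name. A peak was gained or lost when it overlapped no peak (at least 1 bp) of the same factor in the other condition, and overlapping peaks were paired 1 to 1, starting from the pair with the most bases in common. A score was called higher or lower past 2-fold. No replicate test was possible, so counts are set beside those of all other genes, with Wilson 95% intervals. Motifs were searched within 200 bp around peak centres in GRCm38, the assembly that mm10 names, and 0 peaks ended past a chromosome. Exons were those of GENCODE vM21 and RefSeq, and promoter sequences were from RefSeq GRCm38.p6. Members given in full were those with a promoter peak (highest-scoring region), the 5 distal regions with the highest score for each factor and those with a gain or loss in at least 2 factors. Members, lists and rules were chosen with earlier results of these data known. Python 3.11.15, numpy 2.4.6, pandas 2.3.3 and scipy 1.17.1 were used, and overlaps, pairing and motif searches were tested on simulated data.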

Additional observations from a re-analysis of the deposited data

Results flagged for a closer look

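The factors differed in direction after IL-4. JUNB had 4 member peaks in the IL-4 list and 6 in control, a difference of −2, while the C/EBPα and IRF8 member peaks were 5 and 2 more. The whole lists went the same way, from 3940 to 2325 peaks for JUNB, from 24486 to 24612 for C/EBPα and from 37525 to 42076 for IRF8. The median log2 score ratio of IL-4 over control at member peaks was −0.00298 at C/EBPα peaks, 0.225 at IRF8 peaks and −0.589 at JUNB peaks, and at other genes it was −0.004, 0.08 and −0.55. The JUNB value rests on 2 pairs. With 1 library per group, the difference between the factors was not tested.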

How the results depend on the processing

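No paired analysis was possible because each group had 1 sample. Of 114 alternative values, 103 stayed within the interval or limit of the reported one. Many of these limits were wide. For log2 ratios they were the median plus or minus the SD over peaks, −0.464 to 0.914 for IRF8. A move from 32 to 44 members with an IRF8 promoter peak after IL-4 also counted as within. The tally therefore says little about how stable a value is. The 11 values outside their limits are as follows. With peaks of a score of at least 5, the share of members with a gained IRF8 peak was 17.4% instead of 31.3% (other genes 44.5%). When shared peaks had to overlap by 50% of both, 81.4% of member IRF8 control peaks were kept (other genes 69.7%). With equal list lengths, the JUNB control list had 2 members with a peak and a promoter share of 0%, and JUNB lost a peak at 25% of 4 members (other genes 41.3%), where the reported share was 66.7% against 60.7%. With scores divided by the list median, the JUNB log2 ratio was −0.245. With promoters taken as peaks within 2000 bp of the TSS, the IRF8 promoter shares were 45.8% in control and 41.7% after IL-4 (other genes 14% and 16.5%). In a 300 bp window the ISRE core was at 44.1% of member IRF8 control peaks and 75.0% of the 4 JUNB IL-4 peaks. Counting any peak within 1000 bp of a start site, an alternative added after the data were seen, gave 2 members with a JUNB peak in control instead of 1. Depth is unknown, so a peak absent from a list may be one below its detection limit.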
